A study of Mus musculus with 12 samples.

Results

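The genes described here make, sense and break down cyclic GMP (cGMP) in liver sinusoidal endothelial cells. They are Nos3, Gucy1a1, Gucy1b1, Npr1, Npr2, Npr3, Prkg1, Pde2a and Pde5a. The 9 genes were selected on their part in the pathway with their differences between NICD-OE-HEC and Control, in earlier results of these data, in view, and each was read from its probe set, identified by Entrez gene number and platform symbol. All 9 were found among 25428 probe sets, and none was removed by a filter on low values. Because the choice was made with this comparison known, their differences between the groups are given as a description, with intervals and without p-values.

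The comparison sets 6 NICD-OE-HEC samples against 6 Control samples of mouse liver sinusoidal endothelial cells, each hybridized to its own Affymetrix array. NICD-OE-HEC mice carried Clec4g-Cre(tg/wt) and Rosa26-N1ICD-IRES-GFP. In them the Cre, driven by regulatory sequence of the sinusoidal lectin gene Clec4g, switches on the Notch1 intracellular domain, the part of the receptor that enters the nucleus, together with a GFP reporter. The genotype of Control is labelled Ctrl, and no source used here gives its alleles or the age and sex of the mice. Every sample of both groups was pooled from the livers of 3 mice and selected with beads against CD146, so each array averages over mice and over whatever cells the beads retained. The series asks what switching on Notch signalling changes in these cells.

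As a list, sinusoidal endothelial markers were bright in both groups. The list's mean ran from 9.95 to 10.16 on NICD-OE-HEC arrays and from 10.58 to 10.89 on Control arrays. Values throughout are log2 RMA expression, on which 1 unit is a doubling, and the median of every array was 3.67. No detection calls came with the values, so a level below that median cannot be separated from background. At an adjusted p under 0.05 (limma), NICD-OE-HEC had 1244 probe sets above Control and 1422 below it, together 10.5% of those tested. With arrays centred on 8 pan-endothelial genes instead, 1768 were higher and 926 lower. Those 8 genes were not all level, with 1 called higher and 2 lower (37.5%, against 10.5% of all probe sets). Their mean difference was -0.09, and centring on them moved the median difference of all probe sets up by 0.09. Of 10 sinusoidal markers 9 fell and 1 (Lyve1) rose, with a median difference of -0.69. The falls ran from -0.51 (Oit3) to -1.72 (Cd209b). Cd209b was the dimmest of the 10, with means of 4.48 in NICD-OE-HEC (lowest array 3.75) and 6.20 in Control. Of 8 listed Notch target genes 7 rose (87.5%), and the list's mean ran from 7.14 to 7.35 on NICD-OE-HEC arrays and from 5.97 to 6.26 on Control arrays. On a principal component holding 16.4% of the variance, NICD-OE-HEC replicate 4 (-30.3) and Control replicate 2 (-48.5) stood apart from the other arrays (-8.5 to 22.3).

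Cyclic GMP is a second messenger made by a soluble and by membrane-bound cyclases. The soluble enzyme is a dimer of the subunits encoded by Gucy1a1 and Gucy1b1 that is switched on when nitric oxide, the gas made by endothelial nitric oxide synthase (Nos3), binds its haem. The membrane-bound enzymes are the natriuretic peptide receptors Npr1 and Npr2, while Npr3 binds the same peptides without a cyclase domain and clears them. The messenger acts through the kinase encoded by Prkg1 and is hydrolysed by phosphodiesterases such as those of Pde2a and Pde5a. In the liver, nitric oxide from sinusoidal endothelium is known for relaxing and quieting neighbouring stellate cells.

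The 9 genes did not move in 1 direction. Both subunits of the soluble cyclase and the clearance receptor were far higher in NICD-OE-HEC, both cyclase-bearing receptors and Pde2a were lower, and Nos3 differed little. At an adjusted p under 0.05, 4 of the 9 were called higher and 3 lower. The same threshold called 4.89% of all probe sets higher and 5.59% lower, and nothing is read from the excess, since the members were chosen with this comparison known. The groups did not overlap for 3 members that were higher and 3 that were lower, against 2.98% and 3.7% of all probe sets (6.68% together). Where an absolute log2 difference of 1 or more was required besides, 3 members were called higher and 1 lower, against 1.3% and 0.79% of all probe sets. Npr1, Npr2 and Pde2a were lower on the same arrays as 9 of 10 sinusoidal markers, and the part of that wider fall in theirs was not tested. Since these are bulk samples, fewer cells of a type and less RNA per cell cannot be told apart.

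**Figure D1:**
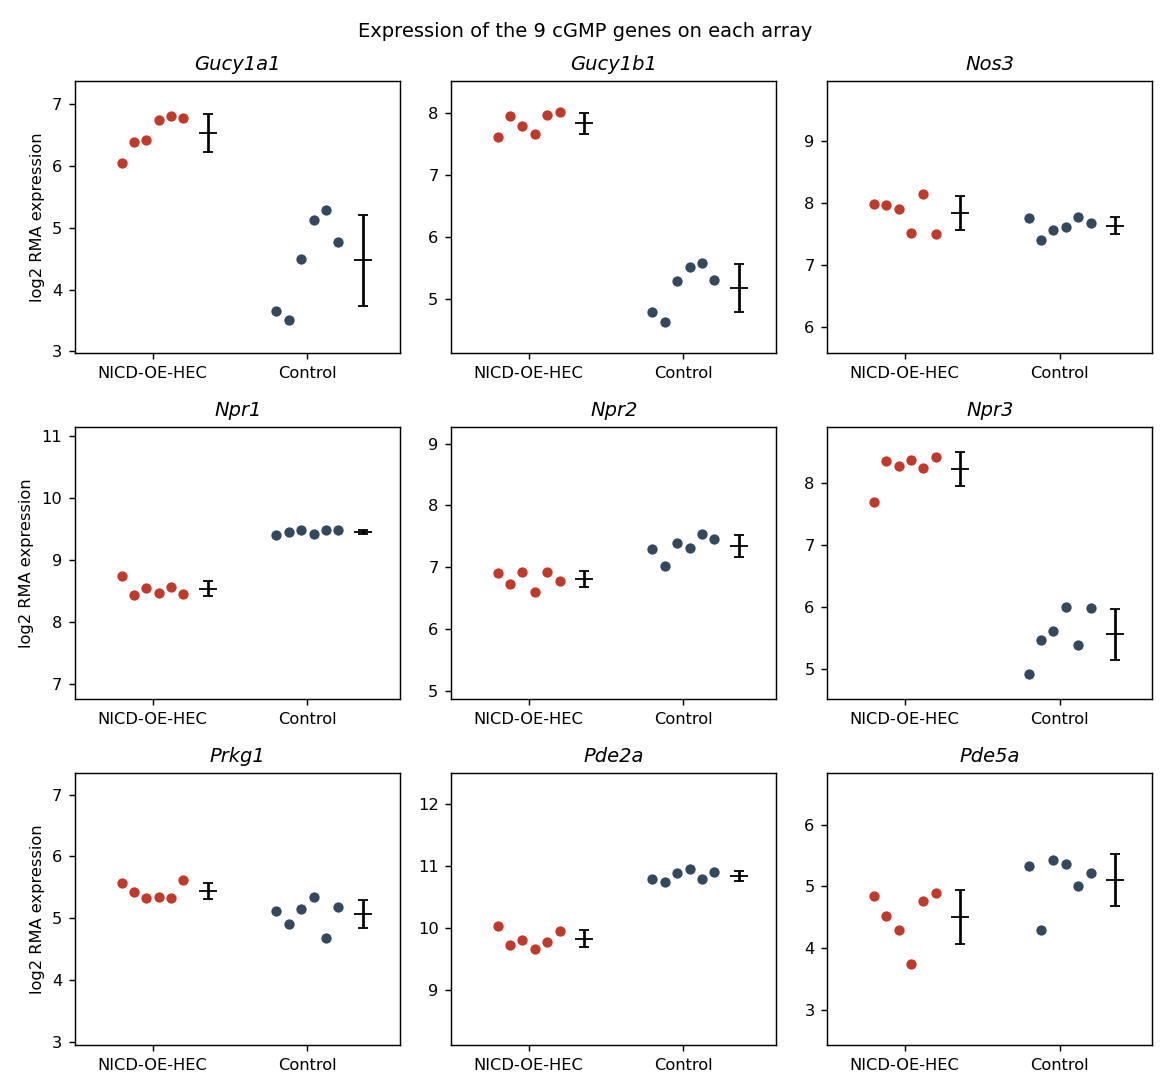
Log2 RMA expression of the 9 genes, 1 point per array in order of replicate number, with NICD-OE-HEC at the left and Control at the right of each panel. The bar beside each group is its mean ± SD (n = 6), and every vertical axis spans the same number of log2 units. Gucy1a1, Gucy1b1 and Npr3 lie wholly above Control in NICD-OE-HEC, Npr1, Npr2 and Pde2a wholly below, and Nos3, Prkg1 and Pde5a overlap.

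Gucy1b1 encodes the haem-binding beta subunit of the soluble cyclase. Its level ran from 7.61 through a median of 7.88 to 8.02 on NICD-OE-HEC arrays, and from 4.62 through 5.29 to 5.58 on Control arrays. The gap between the groups was wider than the spread within either. The means were 7.84 ± 0.17 in NICD-OE-HEC and 5.18 ± 0.39 in Control (SD, n = 6 each). The log2 difference was 2.66 (SE 0.16, 95% interval 2.32 to 3.00), 6.3-fold on the linear scale, the 29th largest positive difference on the array.

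Gucy1a1 encodes the alpha subunit, its partner in the dimer. It ran from 6.05 through a median of 6.57 to 6.81 on NICD-OE-HEC arrays, and from 3.51 through 4.63 to 5.29 on Control arrays. The groups were apart, but Control was spread widely, with replicates 1 and 2 at 3.65 and 3.51, both below the array median. Means were 6.53 ± 0.30 in NICD-OE-HEC and 4.47 ± 0.74 in Control (SD, n = 6 each). The difference was 2.05 (SE 0.28, 95% interval 1.46 to 2.65), 4.15-fold. That size is not exact, because the level of those 2 Control arrays cannot be separated from background.

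The alternative alpha subunit gene, Gucy1a2, did not pass the test. It averaged 4.04 ± 0.27 in NICD-OE-HEC and 3.68 ± 0.19 in Control (difference 0.36, SE 0.13, adjusted p = 0.0954, limma). Of the 11 other cyclase and cyclase ligand genes measured, which include the receptor cyclases of gut and retina, 0 were called by limma (2 had an unadjusted p under 0.05), none had groups that did not overlap, against 10.5% called and 6.68% not overlapping over all probe sets, and for 10 both group means were below the array median. Gucy2g, a receptor cyclase, had the next largest difference of this list (-0.21, adjusted p = 0.17).

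Gucy1a1 and Gucy1b1 lie side by side on chromosome 3 in the RefSeq order of protein-coding genes, with the same orientation. The next protein-coding genes outward were below the array median in both groups. Map9 averaged 1.96 in NICD-OE-HEC and 1.80 in Control, and Asic5 averaged 1.70 in NICD-OE-HEC and 1.59 in Control. Neither was called (adjusted p = 0.387 and 0.523, limma). Over the 31 measured genes within 2 places of the 9 members, 1 was called, against 10.5% of all probe sets: Rgp1, near Npr2, fell (-0.70, adjusted p = 0.000479). These neighbours were taken by position after the members' values were known.

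Upstream sequence is shown for the 2 cyclase subunits, which were higher together on 1 stretch of chromosome, and for the receptor cyclase Npr1, which was lower. The letters searched were TGGGAA, the core bound by RBPJ, the DNA-binding partner of the Notch intracellular domain, its longer form GTGGGAA, which contains the core, and the boxes CACGTG and CACGCG, which basic helix-loop-helix repressors of the HES and HEY families can bind. Both strands were searched. Each sequence below holds the 250 bases before a RefSeq start (GRCm38.p6, minus strand, 5′ to 3′ along the gene), and capitals mark the core on either strand. Gucy1a1 has 2 RefSeq starts, and the window of the one with matches is printed.
Gucy1b1, chr3:82074712-82074961: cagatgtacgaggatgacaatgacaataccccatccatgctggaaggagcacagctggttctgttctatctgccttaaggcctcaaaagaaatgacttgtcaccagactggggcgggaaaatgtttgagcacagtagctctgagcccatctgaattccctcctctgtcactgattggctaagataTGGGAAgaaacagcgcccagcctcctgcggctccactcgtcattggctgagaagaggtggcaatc
Gucy1a1, chr3:82145074-82145323: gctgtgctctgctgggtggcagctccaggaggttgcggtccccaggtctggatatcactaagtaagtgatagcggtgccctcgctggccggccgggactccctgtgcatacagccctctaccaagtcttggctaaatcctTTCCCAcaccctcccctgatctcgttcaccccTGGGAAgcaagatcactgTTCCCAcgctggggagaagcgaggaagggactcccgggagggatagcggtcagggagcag
Npr1, chr3:90465867-90466116: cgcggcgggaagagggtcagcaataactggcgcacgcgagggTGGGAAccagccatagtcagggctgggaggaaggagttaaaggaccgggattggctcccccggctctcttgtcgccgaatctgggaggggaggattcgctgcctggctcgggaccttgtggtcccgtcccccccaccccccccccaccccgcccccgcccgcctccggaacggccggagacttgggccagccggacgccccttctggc

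With the 50 bases after the start included, the Gucy1b1 window held 1 core, not in the longer form, the Npr1 window 1 core, in the longer form, and 1 CACGCG, and the window of this Gucy1a1 start 4 cores, of which 3 were the longer form. Of all 32851 RefSeq windows of 300 bases, 25.6% held at least 1 core and 6.38% at least 1 longer form, so single matches are common. Windows with 3 or more of the longer form numbered 5, or 0.0152%, a comparison made after the match was seen. The window of the other Gucy1a1 start held 0 cores. Among 14 windows of the 8 members found in the table, 6 held a core, those of Pde5a, Pde2a (1 of 5 starts) and Prkg1 (1 of 2 starts) included, and those of Npr2 and Npr3 did not. CACGTG, present in 7.15% of all windows, was in none of the 14, and CACGCG, present in 9.27%, only in that of Npr1. A match in these letters is not a measured binding site.

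Gucy1a1, Gucy1b1 and Prkg1 are known to be strong in stellate and mural cells, so markers of those cells are given beside them. Of 19 such markers 7 rose and 1 fell (42.1%, against 10.5% of all probe sets). The list's mean ran from 5.40 to 5.83 on NICD-OE-HEC arrays and from 4.77 to 5.66 on Control arrays. The collagens Col1a1 (2.49) and Col3a1 (2.11) and the mural gene Rgs5 (1.09) rose. In contrast Lrat, the retinol-esterifying enzyme that defines quiescent stellate cells, fell (-0.75). The contractile genes Tagln (0.94), Acta2 (0.78) and Myh11 (0.50) and the mural receptor Notch3 (0.59) were the others that rose. Desmin (Des, 0.23) and reelin (Reln, -0.59), which also mark stellate cells, were not called. Neither were Pdgfrb (0.58, adjusted p = 0.0531, limma) and Colec11 (0.41). The remaining markers without a call differed by -0.32 (Hand2) to 0.19 (Dcn). On NICD-OE-HEC replicates 1 and 3 the list's mean was 5.40 and 5.41, Gucy1b1 was at 7.61 and 7.79, and Gucy1a1 at 6.05 and 6.41. On Control replicate 5 the list's mean was 5.66, Gucy1b1 was at 5.58 and Gucy1a1 at 5.29. These 3 arrays were picked after their values were seen, and the list's mean averages markers that rose with markers that fell. Within Control, replicate 5 was the highest and replicates 1 and 2 were among the lower 3 for both the marker mean and the 2 subunits. The part of stellate and mural cells in the subunits' difference was not tested.

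**Figure D2:**
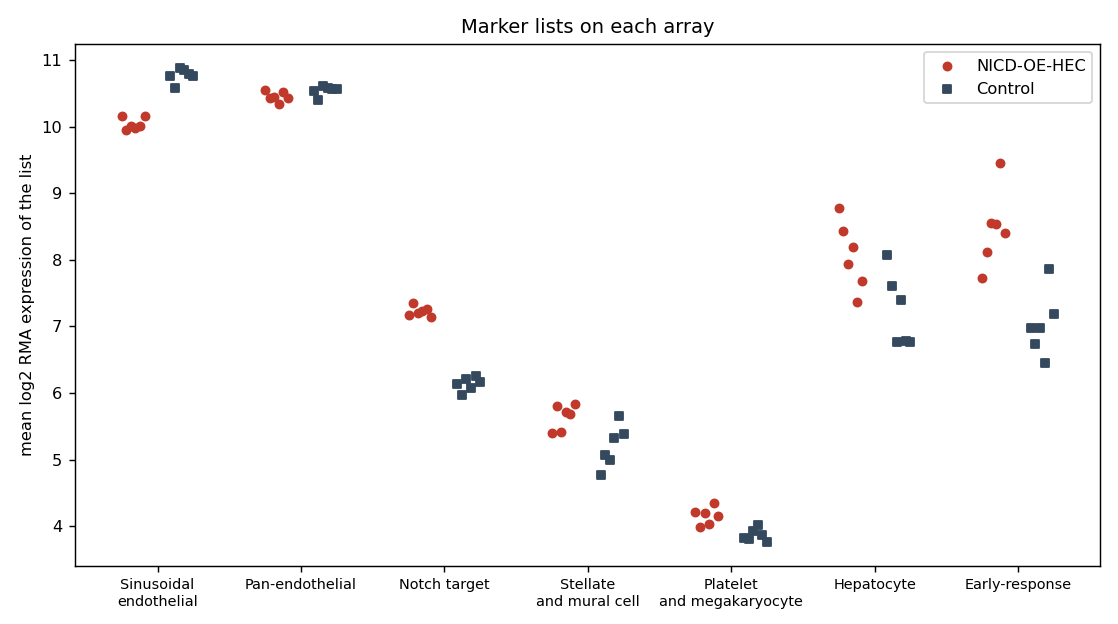
Mean log2 RMA expression of 7 gene lists on each array, NICD-OE-HEC (circles) left of Control (squares) within each list, with points in order of replicate number. Notch targets lie wholly above Control and sinusoidal markers wholly below, while the stellate and mural, platelet and hepatocyte lists overlap between the groups.

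Platelets also hold the soluble cyclase and Pde5a. Of 8 platelet and megakaryocyte markers 2 rose (25%, against 10.5% of all probe sets), the granule chemokines Ppbp (1.01) and Pf4 (0.56). The list's mean ran from 3.99 to 4.34 on NICD-OE-HEC arrays and from 3.76 to 4.02 on Control arrays. None of the others was called. Among them Gp9 differed by 0.31 and the integrin Itga2b, a defining surface protein of platelets, by 0.02, and for 3 both group means were below the array median. The part of platelets in the rise of the cyclase subunits was not tested.

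The 2 subunits also varied together within Control, a measure the choice of genes did not rest on. Across the 6 Control arrays Pearson's r was 0.990 (exact permutation p = 0.00139, the smallest possible) and Spearman's rho 1.000 (exact permutation p = 0.00278, likewise the smallest), and r was 0.957 once the 2 arrays farthest from the Gucy1a1 median were left out. Control replicates 1 and 2 were low for both genes and replicates 4 and 5 high for both. Across the 6 NICD-OE-HEC arrays r was 0.555 (exact permutation p = 0.247), Spearman's rho was 0.714 (exact permutation p = 0.136) and r without the 2 farthest was -0.080, over a much narrower range of both genes. The p-values are two-sided, and of the 72 relations of 36 pairs in 2 groups 0 passed Benjamini-Hochberg adjustment (by exact permutation, the Control subunit pair reached an adjusted p of 0.1 by r and 0.2 by rho), while 4 had an unadjusted p under 0.05 for r and 2 for rho.

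**Figure D3:**
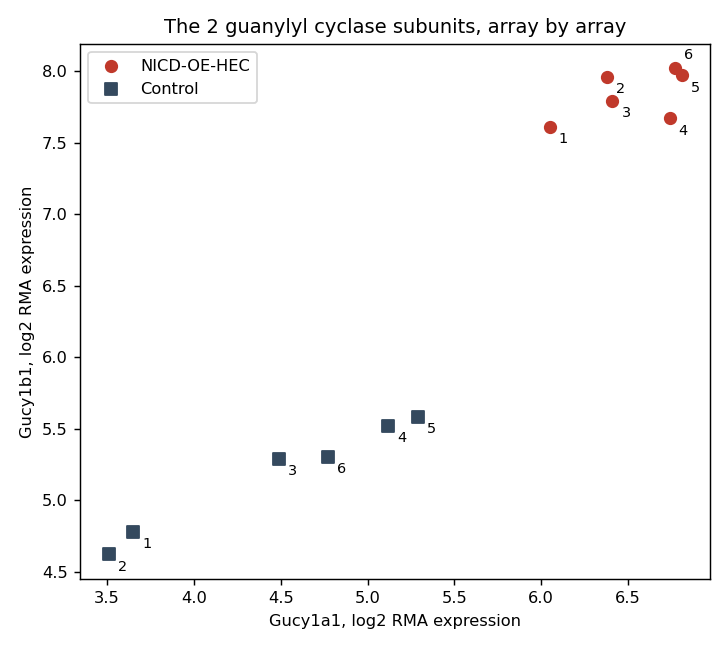
Gucy1b1 against Gucy1a1 in log2 RMA expression, 1 point per array labelled with its replicate number, NICD-OE-HEC as circles and Control as squares. The Control arrays order alike for both subunits, from replicate 2 at the bottom to replicate 5 at the top, and all NICD-OE-HEC arrays lie above and to the right of them.

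When the deviations of every gene from its group means were compared over the 12 arrays, the gene most like Gucy1b1 among 12343 named genes at or above the array median was Gucy1a1 (r of deviations 0.924), followed by Syde1 and Pmepa1 (both 0.921). From the side of Gucy1a1 its partner came 5th, after genes that included Cmpk2 (0.946), Lamb1 (0.943) and Maea (0.938). Those 5 other genes differed between the groups by 0.61 (Lamb1) at most, and none was called. For the receptors, the closest genes were Etfbkmt for Npr1 (0.873), Tsc2 for Npr2 (0.959) and Eid2 for Npr3 (0.887). The closest were Kcnk3 for Nos3 (0.939), Ate1 for Prkg1 (0.932), Mmgt2 for Pde5a (0.973) and Fam199x for Pde2a (0.936). All such deviations share the 12 arrays and whatever sets single arrays apart, so they are descriptions of these arrays.

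Among the receptors, Npr3 was as far from Control as the cyclase subunits. This clearance receptor takes up natriuretic peptides. Its level ran from 7.69 through a median of 8.32 to 8.43 on NICD-OE-HEC arrays and from 4.92 through 5.54 to 6.00 on Control arrays. The groups were apart by more than the spread within either, although NICD-OE-HEC replicate 1, at 7.69, lay below the other NICD-OE-HEC arrays (8.24 to 8.43). Means were 8.23 ± 0.27 in NICD-OE-HEC and 5.56 ± 0.41 in Control (SD, n = 6 each), a difference of 2.67 (SE 0.18, 95% interval 2.29 to 3.05) or 6.35-fold. It was the 28th largest positive difference on the array.

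Npr1, the receptor cyclase for atrial and B-type natriuretic peptides, went the other way. Its level ran from 8.44 through a median of 8.51 to 8.75 on NICD-OE-HEC arrays and from 9.41 through 9.47 to 9.49 on Control arrays. Control was very tight and every NICD-OE-HEC array lay below it. Means were 8.54 ± 0.12 in NICD-OE-HEC and 9.46 ± 0.03 in Control (SD, n = 6 each), a difference of -0.92 (SE 0.08, 95% interval -1.09 to -0.75), which put Control 1.89-fold above NICD-OE-HEC.

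Npr2, the receptor cyclase for C-type natriuretic peptide, was lower to a smaller extent. It ran from 6.60 through a median of 6.84 to 6.93 on NICD-OE-HEC arrays and from 7.02 through 7.35 to 7.54 on Control arrays. The groups lay close but did not overlap. Means were 6.81 ± 0.13 in NICD-OE-HEC and 7.34 ± 0.18 in Control (SD, n = 6 each), a difference of -0.52 (SE 0.10, 95% interval -0.74 to -0.31).

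Within NICD-OE-HEC, the array with the lowest Npr3, replicate 1, had the highest Npr1 (8.75). Over those 6 arrays r between Npr1 and Npr3 was -0.973 (exact permutation p = 0.00833, adjusted p = 0.3 over the 72 relations), Spearman's rho was -0.829 (exact permutation p = 0.0583, adjusted p = 0.525), and r was -0.991 once the 2 arrays farthest from the Npr1 median were left out. Within Control r was 0.192 (exact permutation p = 0.717) and Spearman's rho was 0.029 (exact permutation p = 1), so neither relation passed adjustment.

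The peptides themselves were dim. Of 8 genes for natriuretic peptides and their processing 1 was called, against 10.5% of all probe sets. Nppb and Ostn were below the array median in both groups, as was Nppa, which averaged 3.12 in NICD-OE-HEC and 3.23 in Control. Nppc, the gene of C-type natriuretic peptide, averaged 3.76 in NICD-OE-HEC and 3.83 in Control (adjusted p = 0.827, limma). The gene that rose was Mme, which encodes neprilysin, a peptidase that degrades natriuretic peptides. It averaged 3.95 ± 0.25 in NICD-OE-HEC and 3.21 ± 0.11 in Control (SD, n = 6 each; difference 0.74, SE 0.11, adjusted p = 0.000347, limma), and all 6 Control arrays were below the array median, so the size of its rise is not exact.

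Nos3, the endothelial nitric oxide synthase, did not pass the threshold. It ran from 7.50 through a median of 7.94 to 8.14 on NICD-OE-HEC arrays and from 7.40 through 7.64 to 7.77 on Control arrays. The groups overlapped, with NICD-OE-HEC replicates 4 and 6 at 7.51 and 7.50, inside the range of Control. Means were 7.84 ± 0.27 in NICD-OE-HEC and 7.63 ± 0.14 in Control (SD, n = 6 each). The 95% interval of the difference, -0.05 to 0.46 around 0.21, covers no change as well as a rise of up to 0.46 on the log2 scale.

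The genes around nitric oxide synthesis mostly did not pass the test. Of 16 genes for the other synthases, the cofactor tetrahydrobiopterin, arginine supply and inhibitor breakdown, 1 rose and 1 fell (12.5%, against 10.5% of all probe sets), with a median difference of 0.06 against -0.01 over all probe sets. The gene that fell was Gchfr, whose product holds back the first enzyme of tetrahydrobiopterin synthesis. Gchfr averaged 4.83 ± 0.14 in NICD-OE-HEC and 6.07 ± 0.28 in Control (SD, n = 6 each), and every NICD-OE-HEC array (4.61 to 5.00) lay below every Control array (5.73 to 6.44). The difference was -1.25 (SE 0.12, adjusted p = 6.06e-06, limma). Gch1, the enzyme it restrains, was not called (-0.24, adjusted p = 0.43), nor were the other synthases Nos1 (0.06, adjusted p = 0.865) and Nos2 (0.04, adjusted p = 0.911), both below the array median in both groups.

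Arg1, an arginase of the hepatocyte urea cycle that uses the same substrate as Nos3, was the gene that rose (difference 1.28, SE 0.32, adjusted p = 0.0155, limma). Its groups overlapped, from 6.19 to 7.87 in NICD-OE-HEC and from 4.87 to 6.79 in Control. Hepatocyte markers were higher on the same arrays, with 4 of 9 called, all 4 higher (44.4%, against 10.5% of all probe sets). Their list means ran from 7.37 to 8.78 in NICD-OE-HEC and from 6.76 to 8.08 in Control. Control replicate 1, highest in Control for Arg1 at 6.79, was also highest there for the hepatocyte list, and the part of hepatocyte RNA in the rise was not tested.

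Among 9 measured partners of the Nos3 protein 1 was called, against 10.5% of all probe sets, and it fell. Nostrin, which draws the synthase from the plasma membrane into vesicles, averaged 7.78 ± 0.09 in NICD-OE-HEC and 8.46 ± 0.06 in Control (SD, n = 6 each; difference -0.69, SE 0.08, adjusted p = 1.85e-05, limma). Its NICD-OE-HEC arrays (7.62 to 7.89) all lay below its Control arrays (8.39 to 8.52). Caveolin (Cav1), which holds the synthase inactive, was not called (difference 0.54, SE 0.17, adjusted p = 0.0627).

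Prkg1 encodes the cGMP-dependent kinase of vessels. It ran from 5.33 through a median of 5.39 to 5.62 on NICD-OE-HEC arrays and from 4.69 through 5.13 to 5.34 on Control arrays. The groups touched, the lowest NICD-OE-HEC arrays lying level with Control replicate 4. Means were 5.44 ± 0.13 in NICD-OE-HEC and 5.07 ± 0.23 in Control (SD, n = 6 each), a difference of 0.37 (SE 0.11, 95% interval 0.13 to 0.61). It was called higher only narrowly: leaving out any 1 array other than Control replicate 4 ended the call, with differences from 0.29 to 0.42 over single arrays left out. Without NICD-OE-HEC replicate 4 and Control replicate 2 together, or with the replicate number as a block, it was not called either.

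Of 15 measured genes listed as partners and targets of the kinase and cGMP exporters, 2 rose and 3 fell (33.3%, against 10.5% of all probe sets), with a median of -0.07. The list also holds Prkg2, the gene of another cGMP-dependent kinase, and Cyb5r3, and neither was called. Rgs2, a brake on G protein signalling that the kinase phosphorylates, ran from 8.12 through a median of 9.24 to 9.60 on NICD-OE-HEC arrays and from 6.33 through 6.49 to 6.77 on Control arrays. It averaged 8.99 ± 0.66 in NICD-OE-HEC and 6.51 ± 0.20 in Control, a rise of 2.48 (SE 0.24, adjusted p = 4.89e-06, limma). Early-response genes, a class that tissue digestion can switch on, rose on the same arrays (10 of 12, or 83.3%, against 10.5% of all probe sets). Their list means ran from 7.73 to 9.46 in NICD-OE-HEC and from 6.45 to 7.86 in Control, and their part in the Rgs2 result was not tested.

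The actin regulator Vasp, a classical substrate of the kinase, rose by 0.50 (SE 0.10, adjusted p = 0.00529, limma). Lrmp, now called Irag2 and related to the kinase substrate Irag1 that sits on the inositol trisphosphate receptor, fell by 0.62 (adjusted p = 0.000254), while Irag1 itself (Mrvi1 on the platform) differed by -0.01. The transporter Abcc5, which exports cGMP, fell by 0.41 (SE 0.09, adjusted p = 0.007). The small heat shock protein gene Hspb6 fell by 0.37 (adjusted p = 0.0495), a call lost in 15 of 20 alternatives, the leaving out of any 1 array other than Control replicate 1 among them (adjusted p from 0.0128 to 0.157).

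Pde2a, whose enzyme hydrolyses both cyclic nucleotides and is itself stimulated by cGMP, was lower in NICD-OE-HEC. Its level ran from 9.66 through a median of 9.78 to 10.02 on NICD-OE-HEC arrays and from 10.74 through 10.83 to 10.95 on Control arrays. Both groups were tight and far apart. Means were 9.82 ± 0.14 in NICD-OE-HEC and 10.84 ± 0.08 in Control (SD, n = 6 each), a difference of -1.02 (SE 0.09, 95% interval -1.20 to -0.84), which put Control 2.03-fold above NICD-OE-HEC.

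Pde5a, the cGMP-specific enzyme that sildenafil inhibits, ran from 3.75 through a median of 4.65 to 4.90 on NICD-OE-HEC arrays and from 4.30 through 5.27 to 5.43 on Control arrays. The overlap came from Control replicate 2, at 4.30 the only Control array below 5.01. Means were 4.51 ± 0.44 in NICD-OE-HEC and 5.11 ± 0.42 in Control (SD, n = 6 each), a difference of -0.59 (SE 0.21, 95% interval -1.05 to -0.13) that was not called. Without Control replicate 2 the difference was -0.75 and past the threshold, and it was also past it with array weights and without the 2 arrays that stand apart (-0.63 and -0.60).

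Of 22 other phosphodiesterase genes 3 were called, all of them higher (13.6%, against 10.5% of all probe sets), with a median of 0.06, and all 3 act on cyclic AMP. Pde4b averaged 4.10 ± 0.38 in NICD-OE-HEC and 3.18 ± 0.19 in Control (difference 0.92, SE 0.16, adjusted p = 0.00104, limma), with all 6 Control arrays below the array median. Pde3b, whose enzyme cGMP inhibits, averaged 5.62 ± 0.20 in NICD-OE-HEC and 4.88 ± 0.41 in Control (difference 0.73, SE 0.17, adjusted p = 0.00873, limma). Pde4a rose by 0.36 (SE 0.09, adjusted p = 0.0174), a call lost without the 2 arrays that stand apart and with the replicate number as a block. These 3 of the 22 had groups that did not overlap, with NICD-OE-HEC higher, against 2.98% of all probe sets. None had groups apart with NICD-OE-HEC lower, against 3.7%. Pde9a, a cGMP-specific enzyme like Pde5a, was below the array median in both groups (3.46 in NICD-OE-HEC, 3.25 in Control, adjusted p = 0.441).

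**Figure D4:**
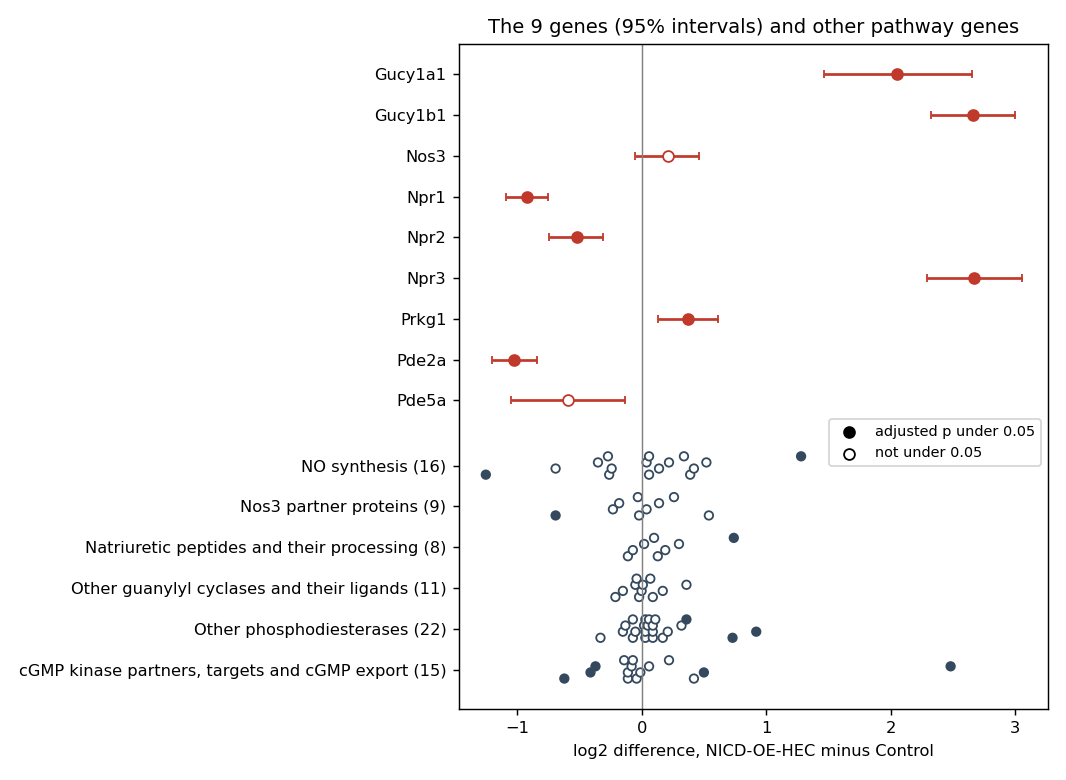
Log2 difference, NICD-OE-HEC minus Control, of the 9 genes (upper rows, with 95% intervals) and of other pathway genes by list (lower rows, 1 point per gene, number measured in parentheses). Filled points had an adjusted p under 0.05 over all probe sets. Gucy1b1 and Npr3 stand to the right of all other pathway genes, and Gucy1a1 to the right of all but Rgs2 at 2.48.

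Across the 6 lists, 81 pathway genes other than the 9 were measured. Of these 7 rose and 5 fell, 14.8% in all, against 10.5% of all probe sets, and for 29 both group means were below the array median.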

How the data were processed

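Expression was measured in 12 samples, 6 NICD-OE-HEC and 6 Control. The deposited values are log2 expression, 1 value per probe set and array, made by the authors with RMA, per the submitters' processing notes. RMA corrects background, normalizes quantiles and summarizes each probe set. No source used here gives the software, the chip definition or a genome build. Because arrays share their quantiles, a shift of most genes in 1 direction would not show. The labels call the samples biological replicates.

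The platform annotation of 2018 names 1 gene for 24705 of the 25428 probe sets, several for 0 and none for 723. Differences are NICD-OE-HEC minus Control from limma 3.58.1 in R 4.3.3 (lmFit, eBayes, 2 groups, no covariates), with two-sided p-values adjusted by Benjamini-Hochberg over all probe sets. A call is an adjusted p under 0.05, SE is limma's moderated error, and SD is over 6 arrays, whose number limits the precision. Promoter windows came from RefSeq (GRCm38.p6), where 8 of the 9 genes matched and Nos3 did not, and that table's gene order gave the neighbours.

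The members, lists and tests were chosen with earlier results of these data known. The text names the 9 genes, for each pathway list the 4 called genes of greatest difference, or the 2 greatest differences if no gene was called, and the genes closest in their deviations. Other listed genes are named to complete counts and were chosen after their values were seen. Kupffer, neutrophil, cholangiocyte and lymphocyte markers had 1 of 10, 5 of 8, 4 of 4 and 0 of 7 (also 0 at an unadjusted p under 0.05, limma) called higher, against 4.89% of all probe sets, and none of these was called lower. The neutrophil mean ran from 4.76 to 6.62 on NICD-OE-HEC arrays and from 3.20 to 4.34 on Control arrays. The cholangiocyte mean ran from 4.61 to 5.15 and from 3.94 to 4.26 in that order. The part of these cells in the differences described was not tested. Same-numbered samples were not treated as pairs, since the correlation of their deviations exceeded 0.1 for only 3 of 6 numbers (-0.10 to 0.22). Some marker lists did follow the number. Hepatocyte, Kupffer and neutrophil means were highest on replicate 1 of both groups, early-response means on replicate 5 and lymphocyte means on replicate 6. The means of the other marker lists were highest on differing numbers. The labels give no batch, and the fit with the replicate number as a block is given below. The limma step was tested on simulated data.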

Additional observations from a re-analysis of the deposited data

Results flagged for a closer look

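Among the 9 genes and 13 named pathway genes, 3 of 44 sets of 6 arrays held an array far from the others by Dixon's criterion, which chance meets in about 1 in 20. Npr3 on NICD-OE-HEC replicate 1 was low at 7.69, against 8.24 to 8.43 on the other NICD-OE-HEC arrays. Pde5a on Control replicate 2, 1 of the 2 arrays that stand apart, was low at 4.30, against 5.01 to 5.43. Arg1 on Control replicate 1 was high at 6.79, against 4.87 to 5.58.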

How the results depend on the processing

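Gucy1a1, Gucy1b1, Npr1, Npr2, Npr3 and Pde2a kept their direction and their call in all 20 alternatives. Their differences ran from 1.82 to 2.22, 2.54 to 2.75, -0.96 to -0.83, -0.59 to -0.43, 2.54 to 2.78 and -1.06 to -0.93 in that order. The members were chosen with this comparison known, so the kept calls are a description. Centring arrays on their median could change nothing, since all arrays shared a median of 3.67. Leaving out dim probe sets cannot change a difference, only its error and adjusted p. Most of the remaining alternatives left out single arrays. Nos3 stayed without a call (0.14 to 0.30). Prkg1 lost its call in 14 of 20 and Pde5a gained one in 3, and the direction of none of the 9 turned. With the replicate number as a block, 3 of the 9 were called higher and 3 lower, 7 and 5 of the other pathway genes, and 1294 and 1213 of all probe sets, so that Prkg1 was the member that changed. Requiring an absolute log2 difference of 1 or more besides, 330 probe sets were higher and 201 lower, 1 member (Pde2a) was lower, and 2 other pathway genes were higher and 1 lower. With arrays centred on the pan-endothelial mean, 1768 of all probe sets were higher and 926 lower. Of the other pathway genes 11 were then higher and 4 lower. Without the dimmest 50 percent, 1325 of the probe sets left were higher and 1629 lower. Of the other pathway genes 7 were then higher and 8 lower, and Mme and Pde4b were not tested. Over single arrays left out, 3 to 4 members were called higher and 3 to 4 lower, 7 to 9 and 4 to 6 other pathway genes, and 1017 to 1323 and 1090 to 1647 probe sets. The number of arrays and, for dim genes, the lack of detection calls limit the precision.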
